A study of Mus musculus with 3 samples.

Results

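JAK kinases and STAT factors form a short route from cytokine receptors to the nucleus. This account covers 9 of their genes, the kinase genes *Jak1*, *Jak2*, *Jak3* and *Tyk2* and the factor genes *Stat2*, *Stat3*, *Stat5a*, *Stat5b* and *Stat6*. The rule that defines them is the gene symbol, and all 9 were found among the 50686 genes of the count table. The RNA came from 3 stable BCR::ABL1+ cell lines, labelled Pre/Pro-B-cells, that grew out of mouse bone marrow after retroviral transduction with BCR-ABL(p185), the fusion kinase of Philadelphia chromosome-positive leukemia. All 3 lines, called lines 1, 2 and 3 by their replicate number, are homozygous for the kinase inactive Cdk6 K43M allele (Cdk6 KM/KM) and carry the oncogene. No line with wild-type CDK6 or without CDK6 was analysed here, so all values describe the Cdk6 KM/KM lines and the spread between them, and none is an effect of the genotype. The labels give neither age, sex nor donor animal for a line, and the medium they describe lists no added cytokine.

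JAK kinases sit on the inner tails of cytokine receptors, and on binding of the cytokine they phosphorylate the receptor and the STAT factors that dock there. The phosphorylated STAT factors pair, enter the nucleus and bind DNA. BCR::ABL1 activates STAT5 in leukemic cells, and in normal B-lymphoid precursors interleukin 7 does so through JAK1 and JAK3. STAT3 is a known partner of CDK6 in transcription. Messenger RNA counts, which are what was measured here, do not show phosphorylation or activity of any of these proteins.

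Levels are given as CPM, counts scaled to a common library size, after TMM normalization, which evens out differences in library composition. Libraries held 19633463 to 25773221 counts on genes, so that a gene without a read may still lie at up to 3 counts, or 0.116 to 0.153 CPM. *Cdk6* itself was read at 450, 334 and 239 CPM in lines 1, 2 and 3, and the K43M base change cannot be seen in such counts. Of 13 markers of B-lymphoid precursors, 12 reached at least 10 CPM in every line, and the list summed to 4310 to 4890 CPM. The exception was *Dntt*, the terminal transferase, with 0.967 to 4.28 CPM. Marker lists of T cells, myeloid cells, erythroid cells, megakaryocytes, NK cells and stroma summed to at most 6.44 CPM in any line, and *Cd3e*, *Elane*, *Pf4*, *Ncr1* and *Col1a1* were at 0 in all lines. Line 3 stood apart by *Xist*, with 53.0 CPM against 0.829 and 0.760 CPM in lines 1 and 2, and by 4 Y-linked genes, which summed to 0.353 CPM against 154 and 113 CPM.

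*Stat5a* and *Stat5b* encode the closely related STAT5 proteins, and how well their reads can be told apart bears on every value given for them. They are neighbours on chromosome 11 of mm10 and point away from each other. *Stat5b* (ENSMUSG00000020919.11) spans 100780731 to 100850724 on the minus strand and *Stat5a* (ENSMUSG00000004043.14) 100859351 to 100885169 on the plus strand. Their coding sequences, of 2391 bases in *Stat5a* and 2358 bases in *Stat5b* without the stop codon, were identical at 2080 of 2291 positions aligned without a gap, or 90.8%. The longest identical run had 324 bases, from coding base 571 to 894 in both genes. Its first 120 bases are shown because a read of 50 bases from here has no base that names its gene.
*Stat5a* and *Stat5b*, coding bases 571 to 690: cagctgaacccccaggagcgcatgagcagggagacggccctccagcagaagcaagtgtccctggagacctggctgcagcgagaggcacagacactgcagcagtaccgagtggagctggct

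The stretch of 120 aligned bases with most differences is shown next, because reads from it do name their gene. It lies at coding bases 45 to 164 in both, and the 33 bases in capitals differ between the genes.
*Stat5a*: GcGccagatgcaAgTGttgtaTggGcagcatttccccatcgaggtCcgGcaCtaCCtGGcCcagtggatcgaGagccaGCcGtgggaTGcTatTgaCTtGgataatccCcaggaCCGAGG
*Stat5b*: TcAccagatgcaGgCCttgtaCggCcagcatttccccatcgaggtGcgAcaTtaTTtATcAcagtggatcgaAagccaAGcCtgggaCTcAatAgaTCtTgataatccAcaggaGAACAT
In the annotated transcript with the longest coding sequence, 608 stretches of 50 bases were common to both genes. For *Stat5a*, 630 of 3556 stretches, or 17.7%, were also found in other genes, and for *Stat5b* 608 of 5164, or 11.8%. How the counting treated reads that match several genes is not stated, so their share in the counts of both genes was not tested. *Jak3* shared 355 of 3970 stretches, or 8.94%, with *Insl3*, a hormone gene on the same strand whose exons overlap its own over 404 bases. *Insl3* had 2 to 4 counts in a line. For the other 6 genes, *Jak1*, *Jak2*, *Tyk2*, *Stat2*, *Stat3* and *Stat6*, the share was 0%. Exons of *Stat3*, *Stat5a*, *Stat6*, *Tyk2* and, over 4 bases, *Jak1* overlap a gene on the opposite strand, and the strand setting of the counting is not stated either. *Stat3* and *Stat5a* end against each other with 72 exonic bases in common, and *Stat6* has 40 in common with *Nab2*. *Tyk2* shares 554 exonic bases, or 8.07% of its exons, with the antisense gene 1700084C06Rik, which had 4 to 6 counts in a line.

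All 4 JAK kinase genes were read in every line, and the steadiest was *Tyk2*. *Jak1* (ENSMUSG00000028530.14, chromosome 4, 101152367 to 101265282, minus strand), which serves interferon, interleukin 7 and many other receptors, was measured at 371, 338 and 395 CPM in lines 1, 2 and 3, a mean of 368 ± 28.5 CPM (SD, n = 3). All 3 lines stayed close together, and the highest was 1.17-fold above the lowest. *Tyk2* (ENSMUSG00000032175.11, chromosome 9, 21104068 to 21131243, minus strand), a kinase of interferon and interleukin 12 family receptors, was measured at 48.9, 50.9 and 49.1 CPM, a mean of 49.6 ± 1.10 CPM (SD, n = 3). No line stood apart, and the range of 1.04-fold was the smallest of the 9 genes. *Jak3* (ENSMUSG00000031805.17, chromosome 8, 71676296 to 71690575, plus strand), the kinase that pairs with the common gamma chain, was measured at 48.2, 57.0 and 43.2 CPM, a mean of 49.5 ± 6.99 CPM (SD, n = 3). Line 2 was highest and line 3 lowest, 1.32-fold apart. *Jak2* (ENSMUSG00000024789.12, chromosome 19, 29251828 to 29313080, plus strand), the kinase of the erythropoietin and beta common receptors, was measured at 27.5, 28.5 and 36.9 CPM, a mean of 30.9 ± 5.19 CPM (SD, n = 3). Lines 1 and 2 were alike and line 3 was higher, with a range of 1.34-fold.

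All 5 STAT factor genes were read in every line, and *Stat3* differed most between lines. *Stat6* (ENSMUSG00000002147.18, chromosome 10, 127642986 to 127660957, plus strand), the factor of interleukins 4 and 13, was measured at 125, 118 and 130 CPM in lines 1, 2 and 3, a mean of 124 ± 6.03 CPM (SD, n = 3). Its range of 1.10-fold was the smallest of the 5 factors. *Stat5b* was measured at 97.8, 117 and 108 CPM, a mean of 108 ± 9.64 CPM, and *Stat5a* at 58.4, 66.8 and 54.5 CPM, a mean of 59.9 ± 6.26 CPM (SD, n = 3 each). Both STAT5 genes were highest in line 2, by 1.20-fold and 1.22-fold over their lowest line, which was line 1 for *Stat5b* and line 3 for *Stat5a*. *Stat3* (ENSMUSG00000004040.16, chromosome 11, 100885098 to 100939540, minus strand), the main factor of interleukin 6 type cytokines, was measured at 76.1, 71.6 and 110 CPM, a mean of 86.0 ± 21.1 CPM (SD, n = 3). Line 3 stood above the other 2, and the range of 1.54-fold was the largest of the 9 genes. *Stat2* (ENSMUSG00000040033.16, chromosome 10, 128270559 to 128292849, plus strand), which acts with IRF9 in the response to type I interferon, was measured at 31.4, 39.7 and 33.1 CPM, a mean of 34.8 ± 4.38 CPM (SD, n = 3), with line 2 highest and a range of 1.26-fold.

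**Figure D1:**
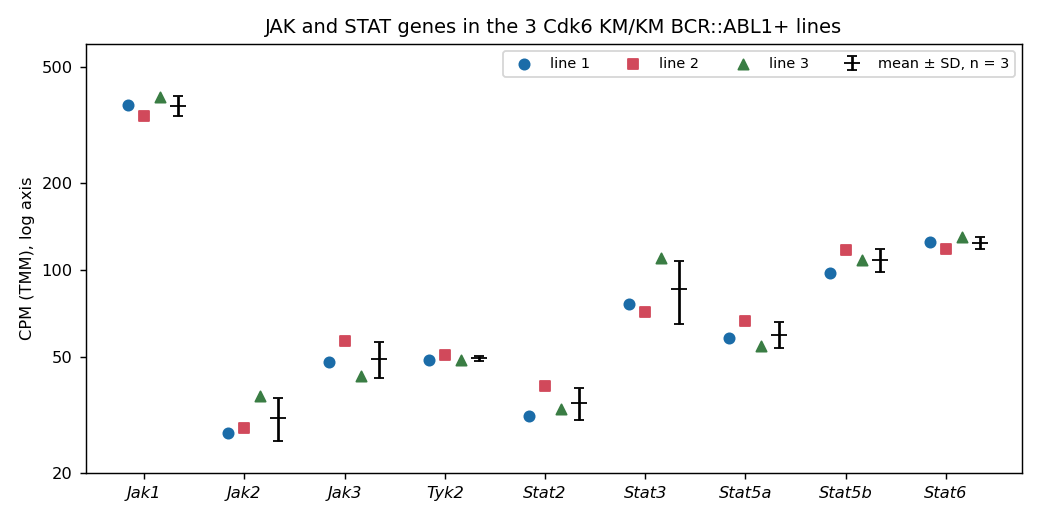
Level of each gene in CPM after TMM normalization (log axis) in lines 1, 2 and 3, with the mean and SD of the 3 lines beside the points. *Tyk2* has the narrowest spread, from 48.9 to 50.9 CPM, and *Stat3* the widest on the log axis, from 71.6 to 110 CPM.

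To compare levels between genes, CPM were divided by transcript length in kilobases, first with the union of all annotated exons as length. On this scale *Jak1* had 50.9 ± 3.95 CPM per kb (SD, n = 3) and took 69.2% ± 2.46 of the sum over the 4 kinases. *Jak3* took 12.6% ± 2.34, *Tyk2* 9.85% ± 0.630 and *Jak2* 8.34% ± 1.05 (SD, n = 3 each). *Jak1* exceeded *Jak3*, the next in order, by 2.47 ± 0.31 on the log2 scale or 5.53-fold, with 2.51, 2.13 and 2.76 in lines 1, 2 and 3. Neighbours in the order were said to differ beyond their spread where the mean log2 ratio was at least 2 SD and had the same sign in every line. *Tyk2* and *Jak2* (0.25 ± 0.24, with -0.04 in line 3) did not reach this limit. For *Jak3* and *Tyk2*, with ratios of 0.34, 0.52 and 0.17 in lines 1, 2 and 3, the mean fell just short of 2 SD before rounding. With 3 lines the smallest p of a paired permutation test is 0.25, so the order is given without a test.

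Among the STAT factors, *Stat6* took 39.9% ± 2.26 of the sum per kilobase, *Stat5b* 27.4% ± 1.88, *Stat3* 12.7% ± 2.67, *Stat5a* 11.8% ± 1.39 and *Stat2* 8.26% ± 0.968 (SD, n = 3 each). *Stat6* exceeded *Stat5b* by 0.54 ± 0.18 on the log2 scale (1.46-fold), *Stat5b* exceeded *Stat3* by 1.13 ± 0.37 (2.19-fold) and *Stat5a* exceeded *Stat2* by 0.52 ± 0.09 (1.43-fold), each beyond the spread of the lines. *Stat3* and *Stat5a* were not separable, with a log2 ratio of -0.03, -0.32 and 0.60 in lines 1, 2 and 3.

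Which neighbours differed beyond their spread depended on the length used. The union of exons is 9527 bases for *Stat3* and 7133 bases for *Stat5a*, against 4516 and 3605 bases in the transcript with the longest coding sequence. With the shorter lengths *Stat3* rose to 19.0 ± 4.67 and *Stat5a* to 16.6 ± 1.74 CPM per kb, next to 20.7 ± 1.85 CPM per kb for *Stat5b* (SD, n = 3 each), and *Stat5b* no longer exceeded *Stat3* beyond the spread (0.14 ± 0.37). Among the kinases, *Tyk2* then exceeded *Jak2* beyond the spread, by 0.75 ± 0.24 on the log2 scale. *Jak3* exceeded *Tyk2* so, by 0.39 ± 0.17, only with the length without shared stretches. *Stat5b* exceeded *Stat5a* by 1.21 ± 0.127 on the log2 scale with the union of exons, by 0.32 with the single transcript and by 0.21 when stretches shared with other genes were also left out of the length. The direction was the same in every line under each length, whereas under the last the ratio of 0.21 lay within 2 SD. Under this last length the counts were left whole, so its values hold only if no read from a shared stretch was counted. Whether that was so is not stated. *Jak1* and *Stat6* were the highest of their families under all 3 lengths. *Jak2* lay at 6.15 ± 1.03 CPM per kb under both annotated lengths, since its union of exons and its transcript are both 5030 bases long.

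**Figure D2:**
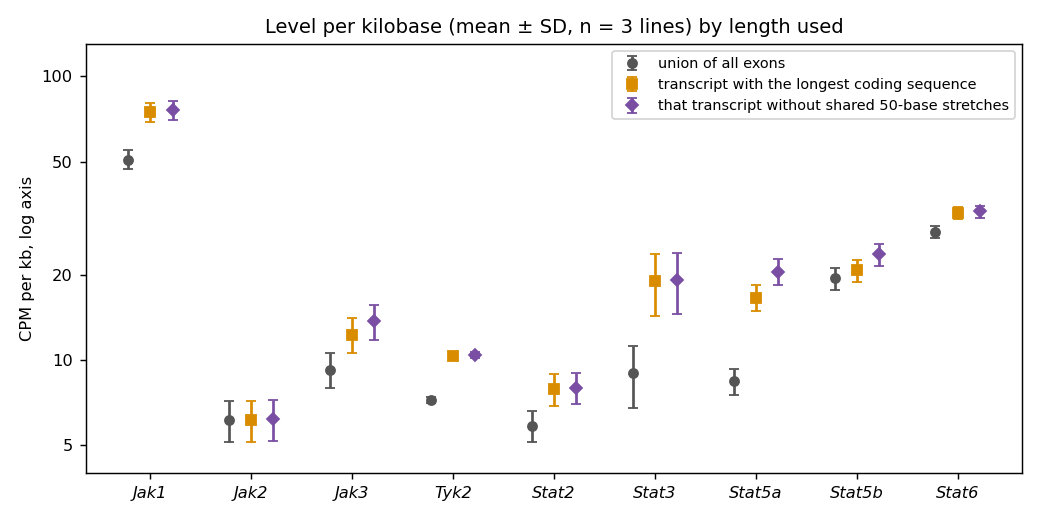
Level of each gene in CPM per kb (log axis, mean and SD of 3 lines) with the union of exons, with the transcript of the longest coding sequence, and with that transcript without 50-base stretches found in other genes. *Jak1* and *Stat6* lead their families under each length, while *Stat5a* moves from 8.40 to 20.5 CPM per kb.

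Whether the lines differed by more than counting noise was tested for every gene with at least 10 counts over the 3 lines, by a chi-square test of homogeneity with Benjamini-Hochberg adjustment at 0.05. The test compares these libraries and not conditions. Of the 9 genes, 8 differed between the lines, against 66.8% of all 13974 genes tested and 81.2% of the 8528 genes with a mean of at least 10 CPM, to which all 9 belong, so the count is near that of any gene of such a level. The exception was *Tyk2*, with an adjusted p of 0.656 in the same test. A range over 1.5-fold was seen in 1 of 9 genes, *Stat3*, against 19.7% of the genes with a mean of at least 10 CPM. The median range was 1.22-fold over the 9 genes and 1.22-fold over all genes of this level. For the SD of log2(CPM + 1) the medians were 0.146 for the 9 genes and 0.145 for the genes of this level.

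For 5 of the 8 genes the call was lost when a single line was left out. Over all genes, 9341 of 13974 tested were called with all lines. Without line 1, 2 or 3 these were 7199 of 13263, 7267 of 13331 and 6098 of 12948. How many of all genes lost a call with some line left out was not counted. Without line 3, *Stat3* had a range of 1.07-fold and *Jak2* of 1.03-fold, and neither passed the test. Without line 2 the range of *Stat3* was 1.43-fold and still passed it. The calls of *Stat2*, *Stat5a* and *Stat6* were lost without line 2, where their ranges were 1.04-fold, 1.08-fold and 1.03-fold, and that of *Stat6* also without line 3. *Jak1*, *Jak3* and *Stat5b* differed whichever line was left out. The highest line was line 2 for 5 genes (*Jak3*, *Tyk2*, *Stat2*, *Stat5a* and *Stat5b*), against 32.7% of the genes with a mean of at least 10 CPM, and line 3 for 4 genes (*Jak1*, *Jak2*, *Stat3* and *Stat6*), against 37.6%. Line 1 was highest for 0 of the 9 genes, against 29.7%.

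Whether a gene moved together with its chromosome region was read from the median deviation of the genes that start within 5 Mb. Deviations are differences in log2(CPM + 1) from the mean of the lines. *Stat3* deviated by -0.15, -0.23 and 0.38 in lines 1, 2 and 3, and its 120 neighbours by -0.04, 0.03 and -0.01. *Stat5a* and *Stat5b*, in the same block, deviated by 0.16 and 0.12 in line 2. The region around *Jak2* was the only one of the 9 whose median reached 0.2, with 0.10, -0.20 and 0.09 in lines 1, 2 and 3 over 32 genes. *Jak2* itself deviated by -0.15, -0.10 and 0.26, and its log2 range was 0.41 before and 0.43 after subtraction of its neighbours. Its pattern changed with the subtraction, to -0.26, 0.09 and 0.17, so that line 3 no longer stood apart and line 2 lay nearer to it than to line 1. Line 1 was lowest before and after. *Jak3* deviated most in line 2, by 0.21, where its 91 neighbours had a median of 0.03. After subtraction, the log2 range was 0.65 for *Stat3* and 0.08 for *Tyk2*, still the largest and the smallest of the 9.

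**Figure D3:**
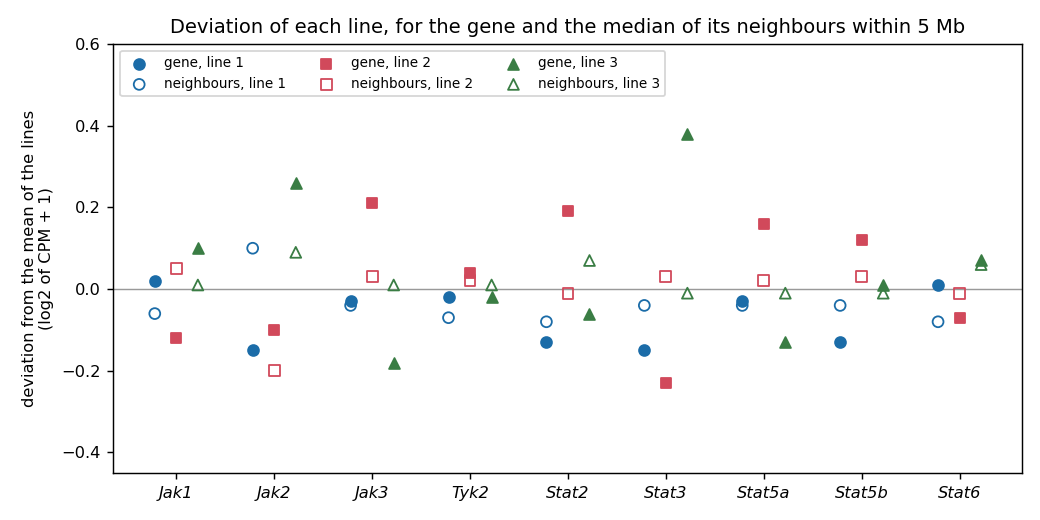
Each line's log2(CPM + 1) minus the mean of the lines, filled for the gene and open for the median of the genes that start within 5 Mb. *Stat3* in line 3 is highest at 0.38 while its neighbours are at -0.01, and the open points reach -0.20 only around *Jak2*.

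For the 2 genes with the largest range, genes of like pattern were sought among the 8527 other genes with a mean of at least 10 CPM, by the Euclidean distance of the deviations over the 3 lines. Nearest to *Stat3* were *Slc25a1* (143, 133 and 205 CPM), *Dhrs11* (25.9, 24.3 and 38.2 CPM) and *Plekhm2* (16.1, 15.3 and 23.4 CPM). Nearest to *Jak2* were *Eef1akmt2* (24.0, 25.0 and 32.5 CPM), *Fbf1* (39.5, 41.0 and 53.4 CPM) and *Atp6v1f* (45.1, 47.1 and 61.2 CPM). With 3 samples such likeness is common, and 73 genes lay within 0.1 of *Stat3* and 262 within 0.1 of *Jak2*.

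Other factors of the family and their partners were measured in the same lines. *Stat4*, the factor of interleukin 12, had 18.4, 27.3 and 39.2 CPM in lines 1, 2 and 3, and its 2.13-fold range was larger than that of any of the 9. Its neighbours within 5 Mb had a median between -0.02 and 0.05. *Irf9*, the DNA-binding partner of STAT2, had 19.2, 21.4 and 16.8 CPM and *Nmi*, which binds STAT proteins, 26.4, 27.7 and 28.4 CPM. *Stat4* and *Irf9* differed between the lines and *Nmi* did not pass the test.

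Receptor chains are the docking sites of the kinases. Of 31 chains listed, 23 had enough counts to be tested and 20 of these differed between the lines, against 66.8% of all genes tested. The share was 81.2% for genes with a mean of at least 10 CPM, to which 15 of the 23 belong. Of the 15 chains with a mean of at least 10 CPM, 7 had a range over 1.5-fold, against 19.7% of all genes of this level, and their median range was 1.43-fold, beside 1.22-fold over all genes of this level. The chains with the most counts per library were *Csf2rb*, the beta common chain that uses JAK2, with 313 ± 20.1 CPM, the interleukin 7 receptor gene *Il7r* with 103 ± 29.0 CPM and *Csf2rb2* with 81.4 ± 9.14 CPM (SD, n = 3 each). *Csf2rb* and *Csf2rb2* are close relatives, and how reads common to both were counted is not stated. *Il7r* had 82.8, 136 and 89.8 CPM, highest in line 2. The largest ranges among chains with at least 5 CPM were those of *Il2ra*, the interleukin 2 receptor alpha chain, with 1.43, 12.4 and 4.16 CPM, an 8.65-fold range, and of the interleukin 21 receptor gene *Il21r*, with 66.0, 23.6 and 60.7 CPM, a 2.80-fold range. *Il2rg*, the common gamma chain that holds JAK3, had 35.2, 33.6 and 86.8 CPM. It lies on the X chromosome, where its 33 neighbours deviated by -0.36, -0.20 and 0.56 in lines 1, 2 and 3, and the part of that block in the level of *Il2rg* was not tested. *Il2rg* is named outside the rule for named genes, as it was picked after its values were seen.

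Negative regulators shorten or dampen the signal. Of 18 listed, all 18 were tested and 16 differed between the lines, against 66.8% of all genes tested. The share was 81.2% for genes with a mean of at least 10 CPM, to which 17 of the 18 belong. A range over 1.5-fold was seen in 3 of 17 with at least 10 CPM, near the 19.7% of all genes of this level. *Ptprc*, the CD45 phosphatase that acts on JAK kinases, had 383 ± 17.2 CPM, *Ptpn6*, the SHP-1 phosphatase, 361 ± 76.7 CPM and *Cbl*, a ubiquitin ligase, 277 ± 13.6 CPM (SD, n = 3 each). Of those with at least 5 CPM, the suppressor genes with the largest range were *Socs2*, with 143, 220 and 140 CPM, and *Socs3*, with 46.0, 46.5 and 30.0 CPM. *Ptpn6* was lowest in line 2, with 273 CPM against 416 and 393 CPM. Of the 17 regulators with at least 5 CPM, 7 were highest in line 2, 5 in line 1 and 5 in line 3. Over all genes with a mean of at least 10 CPM, the shares in the same order were 32.7%, 29.7% and 37.6%.

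Targets of STAT factors and adaptors of the receptors formed the last list. Of 14 genes tested, 12 differed between the lines, against 66.8% of all genes tested. The share was 81.2% for genes with a mean of at least 10 CPM, to which 13 of the 14 belong. Of these 13, 0 had a range over 1.5-fold, against 19.7% of all genes of this level. *Ccnd2*, the gene of cyclin D2 and a STAT5 target, had 723, 839 and 714 CPM. *Myc* had 715, 659 and 553 CPM and *Ptpn11*, the gene of the SHP-2 phosphatase, 315, 239 and 219 CPM. The neighbours of *Ptpn11* on chromosome 5 deviated by 0.26, -0.10 and -0.18 in the same order. *Gab2*, an adaptor of BCR::ABL1 signalling, had 34.5, 45.4 and 48.4 CPM. Of the 13 targets and adaptors with at least 5 CPM, 6 were highest in line 2, 4 in line 1 and 3 in line 3, beside the 32.7%, 29.7% and 37.6% of all genes with at least 10 CPM. Line 2 also had the highest sum of B-lymphoid precursor markers, 4890 CPM against 4310 and 4540 CPM, and 91.4 CPM of the recombinase gene *Rag1* against 22.4 and 32.4 CPM, and their part in the levels of the STAT5 genes was not tested.

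**Figure D4:**
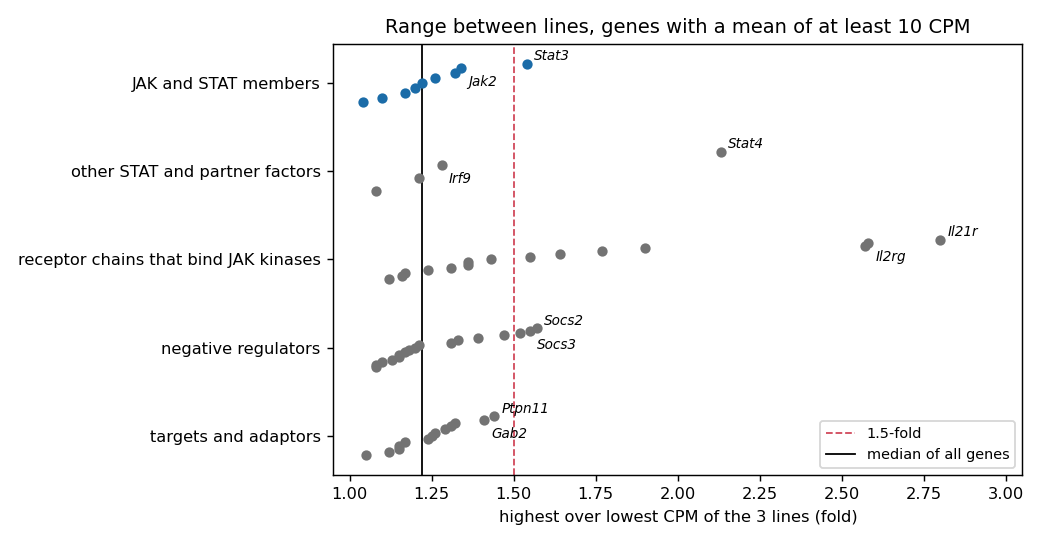
Highest over lowest CPM of the 3 lines for each gene with a mean of at least 10 CPM, in the 9 JAK and STAT genes and in 4 lists of the pathway, with the median of all such genes (1.22-fold) and 1.5-fold as lines. Of the 9 genes only *Stat3* passes 1.5-fold, against 7 of 15 receptor chains, where *Il21r* reaches 2.80-fold.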

How the data were processed

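Poly(A) RNA of 3 Cdk6 KM/KM BCR::ABL1+ lines was analysed. The authors trimmed and merged the reads, aligned them to mm10 with STAR and deposited raw counts of reads on exons of Gencode M13 genes, made with FeatureCounts, without normalization. The strand setting and the treatment of reads with several matches are not given in the sources used here. For the library kit the paper names TruSeq and the labels name SENSE mRNA-Seq (single-end, 50 bases). The table holds 6 columns of other samples, which were not used. No row lacked a gene. Identifiers were matched to symbols for 50376 of 50686 genes, and coordinates and lengths come from Gencode M21 (mm10).

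Counts were scaled with edgeR 4.0.16 (TMM, R 4.3.3) and given as CPM. A chi-square test of homogeneity was run on genes whose counts summed to 10 or more, against the scaled library sizes with Benjamini-Hochberg adjustment at 0.05. The 3 lines are 1 group, so no test between conditions was made, and whether the lines came from separate animals is not stated. The most alike libraries still differed at 6102 genes, and none was treated as a duplicate. The chi-square step was tested on simulated data with counting noise as the only noise, so noise from library preparation is not covered. Python 3.11.15, scipy 1.17.1 and biopython 1.88 were used.

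The rule for the members uses no measured value, but the members and gene lists were chosen with earlier results of these data known. Genes named are the 9 members, of each list the 3 highest and the 2 with the largest range among those with at least 5 CPM, the 3 genes most like each of the 2 most variable members, *Cdk6* and markers. Other genes were named after their values were seen, and some genes of the lists are not reported here. Other settings tried were size factors from DESeq2 1.42.0, plain library sizes, no minimum count or 10 in each line, 0.1 CPM in place of 1 CPM as pseudocount, other lengths, and each line left out.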

Additional observations from a re-analysis of the deposited data

How the results depend on the processing

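No paired analysis was possible because only 1 genotype was analysed. The summary results were recomputed under other normalizations, filters, pseudocounts and lengths, and 35 of 37 such values moved by no more than the SD or by less than 1.5 times. The 2 others are the log2 ratio of *Stat5b* to *Stat5a* per kilobase, 1.21 with the union of exons, which was 0.32 with a single transcript as length and 0.21 with that length without stretches shared with other genes, a setting chosen after seeing the data. Here the change lies in the lengths themselves. The library size cancels in a log2 ratio taken within a line, so such ratios were bound to stay the same under other normalizations. Of these settings, only the other normalizations were applied to the levels and ranges of the single members, and the levels stayed within 1 SD. Both were also recomputed with each line left out, and ranges then moved. Without line 3 the range fell from 1.54-fold to 1.07-fold for *Stat3* and from 1.34-fold to 1.03-fold for *Jak2*. *Tyk2* passed the test under no setting, with adjusted p from 0.488 to 0.881.

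With 1 line left out in turn, 5 to 8 of the 9 genes differed between the remaining lines (8 with all). Over all genes it was 6098 to 7267, of 12948 to 13331 tested (9341 of 13974 with all), lowest without line 3. The members with a range over 1.5-fold numbered 0 without line 2 or line 3 and 1 without line 1, and all genes with such a range 702 to 1159 (1680 with all). The median SD of the members ranged from 0.0805 without line 2 to 0.180 without line 1. The pathway genes that differed numbered 35 to 41 (51 with all). The log2 ratio of *Stat5b* to *Stat5a* ranged from 1.14 to 1.26, of *Jak1* to *Jak3* from 2.32 to 2.63 and of *Stat6* to *Stat5b* from 0.47 to 0.64. The limit of 3 counts for a gene without a read lies far below the 9 members, with at least 562 counts in every line. Depth also limits the chi-square test at low counts. *Il6ra*, with 9, 6 and 14 counts in lines 1, 2 and 3, did not pass it at a 1.81-fold range.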
